A study of Mus musculus with 2 samples.

Results

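The coenzyme Q synthesis genes were examined in livers of mice lacking Pnpla8 and in wild-type livers. The set had 10 members, Pdss1, Pdss2, Coq2, Coq3, Coq4, Coq5, Coq6, Coq7, Coq9 and Coq10a, of 28582 named genes with a probe on the array. Members were found by the gene name that the array files give each non-control probe, and 14 probes in 32 spots carried one of these names. The genes had been picked for their signal in the Pnpla8-/- pool against the wild-type pool, so their ratios are given here as a description and were put to no test. Of the 10 members, 9 were well above background on both arrays, among 18773 genes that were.

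Coenzyme Q, or ubiquinone, is a lipid of the inner mitochondrial membrane that carries electrons from complex I, complex II and several other dehydrogenases to complex III. It is built from a benzoquinone ring that derives from tyrosine and a long isoprenoid tail made from mevalonate. The tail is joined to the ring precursor in the mitochondrion, and an assembly of enzymes on the inner membrane then decorates the ring by methylation, hydroxylation and decarboxylation. Liver makes its own coenzyme Q and also exports part of it in lipoproteins.

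The groups were Pnpla8-/- livers and wild-type livers, both of C57BL/6N mice, with 1 one-colour array per genotype. Pnpla8 encodes a calcium-independent phospholipase A2 of mitochondria and peroxisomes, and the study asked how breakdown of phosphatidylcholine in the liver supplies choline to the methionine cycle. Each array held RNA pooled from 5 animals, whose age is 6 weeks in the sample labels and 8 weeks in the design text. The labels do not give how the allele was made, the sex of the animals, or whether the controls were littermates. Because 1 array stood for each genotype, no test across samples was possible, the differences have no replicate check, and genotype, pool and array position cannot be told apart.

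On each array 43020 non-control spots were read, of which 65.6% were well above background in the Pnpla8-/- pool and 70.1% in the wild-type pool, and 0 spots were saturated. The 75th percentile of the processed signal, by which each array was scaled, was 1018 in the Pnpla8-/- pool and 1207 in the wild-type pool. Every ratio below is the log2 of the scaled Pnpla8-/- signal minus the log2 of the scaled wild-type signal, so a positive value is higher in the Pnpla8-/- pool. The median of this ratio over all 18773 genes was 0.04, and the middle 50% lay between -0.14 and 0.20. Without scaling that median was 0.25 lower, and with scaling to the spike-in controls it was 0.16 lower, and both settings move every gene by the same amount, so the sign of a small ratio depends on the scaling while its place among all genes does not. The probe for Pnpla8 read 4.45 in the Pnpla8-/- pool, where it was not well above background, against 144.5 in the wild-type pool, and was at least 6.81-fold lower in the knockout. The sources used here do not say whether this probe lies in the deleted part of the gene.

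The array reads each transcript through probes of 60 bases. Sequences of 3 probes are shown, each 5′ to 3′ on the transcript's strand with the mouse build mm9 (NCBI37) coordinates of the array files: the Pdss2 variant 2 probe, because it gave the lowest ratio of any member probe, the Pdss1 probe, because 10 spots of it were printed on each array, and the Coq5 probe with the highest ratio of any member probe.
Pdss2 variant 2, chr10:43115378-43115437: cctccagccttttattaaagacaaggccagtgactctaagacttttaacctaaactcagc
Pdss1, chr2:22795422-22795481: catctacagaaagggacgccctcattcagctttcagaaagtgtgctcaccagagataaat
Coq5, chr5:115745726-115745785: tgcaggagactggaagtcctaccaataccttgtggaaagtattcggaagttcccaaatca
The files place 12 of the 14 member probes on the chromosome of their gene in the RefSeq gene table. Both Coq2 probes are the exceptions, at chr6:136434225-136434284 and chr6:136434057-136434116, whereas the table has Coq2 on chromosome 5. The Coq2 values below are therefore uncertain as to the sequence they read. The files give each probe a start position, from 750 for Coq7 variant 1 to 2244 for Coq10a, but do not say whether it covers coding or untranslated sequence.

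Of the 9 measured members, 8 had a ratio above 0 and 1 below it, against 56.4% of all measured genes above 0. None of the 9 was at least 2-fold higher, where 1.27% of all measured genes were, and none was at least 2-fold lower, where 1.94% were. The count was also 0 at 1.5-fold in either direction, where 4.31% of all genes were higher and 6.14% lower. The member ratios ran from -0.11 for Pdss2 to 0.36 for Coq9, with a median of 0.22. In folds this range is 0.927 to 1.28. With unscaled signals 4 of the 9 members were above 0, against 20.3% of all genes, and with spike-in scaling 5 were, against 30.5%. Relative to the median of all genes 8 of 9 members were higher under each of these 3 scalings, and their own median stood 0.19 above it in each. Neither value could differ between them, because these settings move every gene alike. Since the members had been picked on this contrast, nothing is read from these counts.

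**Figure D1:**
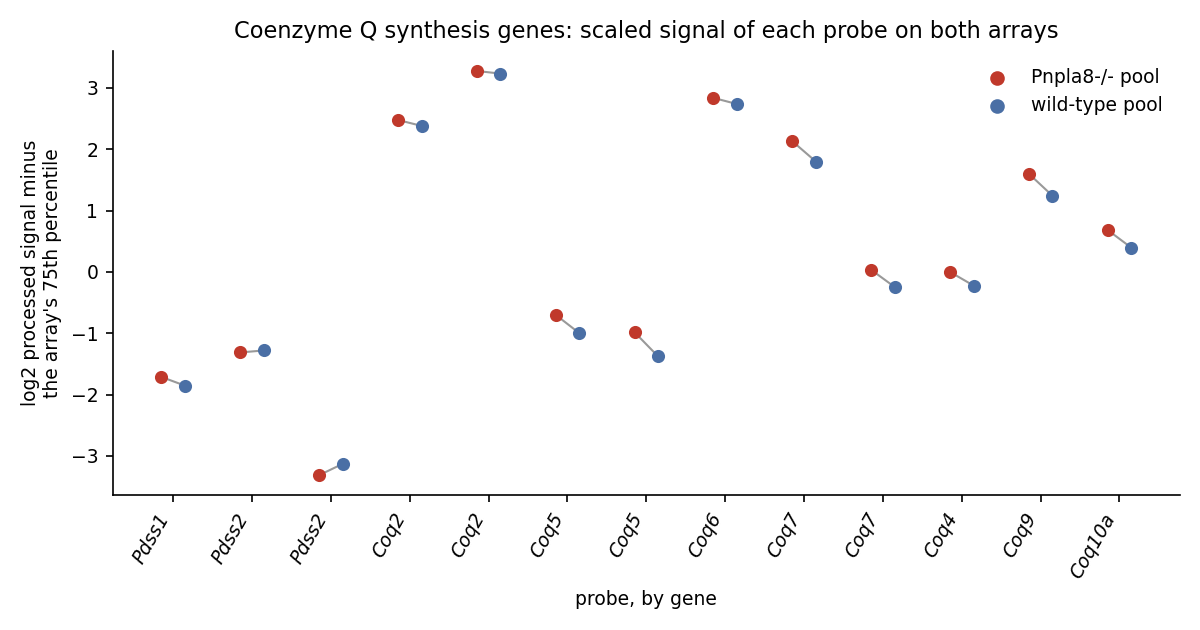
Log2 of the processed signal minus the array's 75th percentile (vertical axis) for the 13 member probes that were well above background on both arrays, grouped by gene on the horizontal axis, with the Pnpla8-/- pool in red left of the wild-type pool in blue and a line joining the readings of 1 probe. In 11 of the 13 probes the red point is the higher, and the exceptions are both probes of Pdss2.

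The tail of coenzyme Q is made by a prenyl diphosphate synthase of paired subunits, Pdss1 and Pdss2, which extends isoprenoid units from the mevalonate pathway. Pdss1 was read by a probe printed in 10 spots, whose processed signal averaged 306 in the Pnpla8-/- pool, against 330.5 in the wild-type pool. The spots ran from 268 to 343 with a median of 307 in the Pnpla8-/- pool, and from 299.7 to 353 with a median of 328 in the wild-type pool. These means, medians and ranges include outlier-marked spots, and the lowest spot of each array bore such a mark. Unscaled, the ranges overlapped and the Pnpla8-/- spot was the lower in all 8 pairs of spots without an outlier mark. After scaling, the same 8 pairs had ratios from 0.06 to 0.20, with a mean of 0.14 ± 0.05 (SD between spots of 1 array pair), so the sign for Pdss1 turned with the scaling.

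Pdss2 was the lowest of the measured members. Its variant 1 probe read 410.0 in the Pnpla8-/- pool, against 497 in the wild-type pool, a ratio of -0.03 after scaling. Its variant 2 probe read 102 in the Pnpla8-/- pool, against 138 in the wild-type pool, a ratio of -0.19. Both probes, which lie 44326 bases apart, were thus below 0, and the gene's ratio was -0.11, with 28.4% of all measured genes lower than it. The ratio was -0.35 without scaling, -0.27 with spike-in scaling and -0.05 with median scaling. These settings move every gene alike, so the place of Pdss2 among the genes could not change. It was -0.05 with quantile scaling, -0.11 with loess scaling and -0.03 with the normexp background. In each of these Pdss2 was again the lowest member and below the median of all genes. As reported its ratio lay within 1 scanner error (0.21) of 0. Pdss1 exceeded Pdss2 by 0.25 on the log2 scale, with an error of 0.29. That error, like the others given with ratios, is the one the scanner software assigned to each processed signal, carried through to the ratio, and covers neither animals nor hybridisations. It was 0.20 to 0.21 for each measured member, whatever the number of its spots or probes. By this error the subunits of the synthase were not set apart from each other. The unmarked Pdss1 spot pairs all lay above both Pdss2 probes, but they repeat 1 hybridisation per genotype, so a difference between animals was not tested.

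Coq2 is the membrane enzyme that attaches the tail to 4-hydroxybenzoate. Its probes read 5668 and 9864 in the Pnpla8-/- pool, against 6285 and 11346 in the wild-type pool, and gave ratios of 0.10 and 0.04. The gene's ratio was 0.07, above 55.2% of all measured genes and within 1 scanner error of 0. Coq2 fell below 0 without scaling (-0.18), with spike-in scaling (-0.09) and with loess scaling (-0.01).

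The ring is modified by the methyltransferases Coq3 and Coq5, the flavin-dependent hydroxylase Coq6, the di-iron hydroxylase Coq7, and Coq4, which in human cells acts in removing the ring's carboxyl group. Coq3, which methylates oxygens of the ring, read 14.2 in the Pnpla8-/- pool and 14.1 in the wild-type pool. It was not well above background on either array, so no ratio is given for it.

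Coq5, which adds the methyl group on a ring carbon, had one of the highest ratios of the set. Its 10-spot probe averaged 628 in the Pnpla8-/- pool, against 599 in the wild-type pool. The Pnpla8-/- spots ran from 592 to 663 with a median of 621, against 548.5 to 638 with a median of 599.95 in the wild-type pool. All 10 spots are included, and the lowest wild-type spot bore an outlier mark. These unscaled ranges overlapped. After scaling the spots of the pools did not overlap, at -0.78 to -0.62 in the Pnpla8-/- pool and -1.14 to -0.92 in the wild-type pool. All 9 pairs of unmarked spots were higher in the Pnpla8-/- pool, with and without scaling, and their scaled ratio was 0.30 ± 0.04 (SD between spots). The other Coq5 probe, shown above, read 515 in the Pnpla8-/- pool, against 464 in the wild-type pool, a ratio of 0.40. With both probes the gene's ratio was 0.35, above 88.0% of all measured genes.

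**Figure D2:**
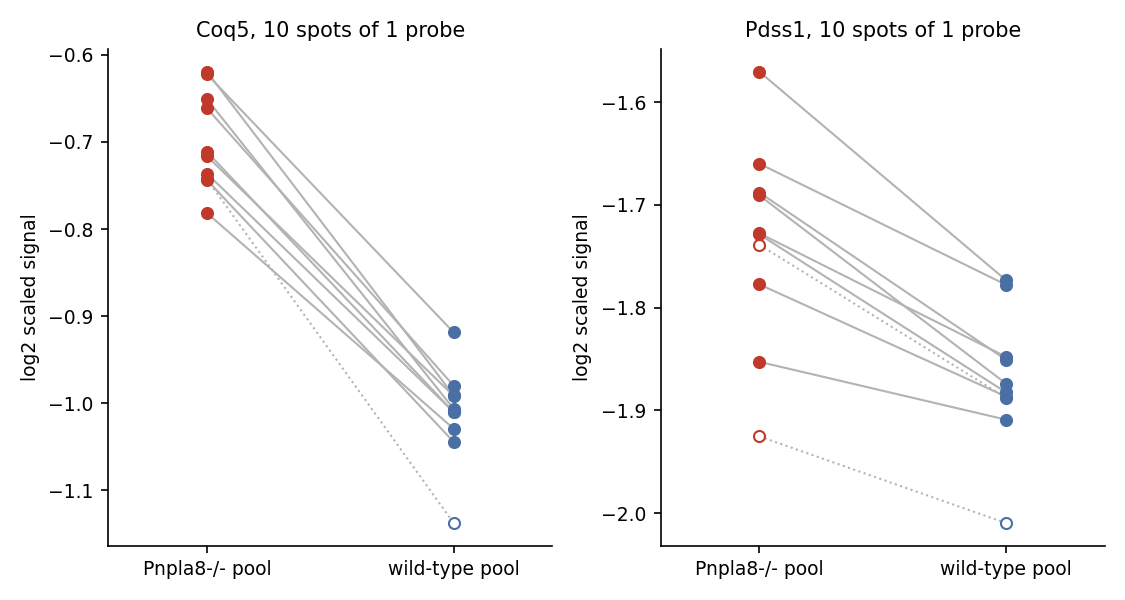
Log2 scaled signal (vertical axes) of the 10 spots of the Coq5 probe (left panel) and the 10 spots of the Pdss1 probe (right panel), in the Pnpla8-/- pool in red and the wild-type pool in blue, with lines joining spots at the same position of the array layout and open points with dotted lines for pairs holding an outlier-marked spot. The Coq5 spots do not overlap between the pools, at -0.78 and above against -0.92 and below, whereas the Pdss1 spots do; spots of 1 array are repeats of 1 hybridisation and not of animals.

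Coq6 hydroxylates the ring with electrons passed to it through a ferredoxin. Its probe read 7277 in the Pnpla8-/- pool and 8043 in the wild-type pool. The scaled ratio was 0.10, above 60.1% of all genes, and the sign reversed without scaling (-0.14) and with spike-in scaling (-0.06).

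Coq7 carries out the last hydroxylation, on a substrate held by Coq9. The probe of its variant 1 read 4463 in the Pnpla8-/- pool, against 4200 in the wild-type pool, and that of variant 2 read 1044 in the Pnpla8-/- pool, against 1018 in the wild-type pool. The scaled ratios were 0.33 and 0.28, and the probes, 15167 bases apart, differed by 0.05. The gene's ratio of 0.31 stood above 85.3% of all measured genes and remained above 0 under every scaling tried.

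Coq4 read 1019 in the Pnpla8-/- pool and 1035 in the wild-type pool. Its scaled ratio of 0.22 was the median of the set and stood above 77.2% of all genes. Without scaling the ratio was -0.02, and with spike-in scaling 0.06.

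Coq9 is a lipid-binding protein that presents the quinone precursor to Coq7, and it had the highest ratio of the set. The Coq9 probe, at chr8:97378116-97378175 in mm9, read 3091 in the Pnpla8-/- pool, against 2855 in the wild-type pool. The ratio was 0.36, or 1.28-fold, above 88.7% of all measured genes, and it was 0.11 without scaling and 0.20 with spike-in scaling. Coq10a belongs to a family of lipid-binding proteins that in yeast is needed for coenzyme Q to work in respiration. Its probe read 1636 in the Pnpla8-/- pool and 1588 in the wild-type pool. The ratio of 0.29 was above 84.0% of all genes, and was 0.04 without scaling.

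Judged by the scanner error, the members could hardly be ranked among themselves. Ordered by ratio they ran Coq9, Coq5, Coq7, Coq10a, Coq4, Pdss1, Coq6, Coq2 and Pdss2, and each differed from its neighbour in that order by no more than 0.18, against a scanner error of about 0.29 on such a difference. The ends of the order, Coq9 and Pdss2, differed by 0.47, with an error of 0.29. The ratios of 5 members exceeded their own scanner error of 0.20, and 0 exceeded 2 such errors. Probes of the same gene were closer to each other than this error, differing by 0.05 in Coq2 and Coq7, 0.10 in Coq5 and 0.15 in Pdss2.

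**Figure D3:**
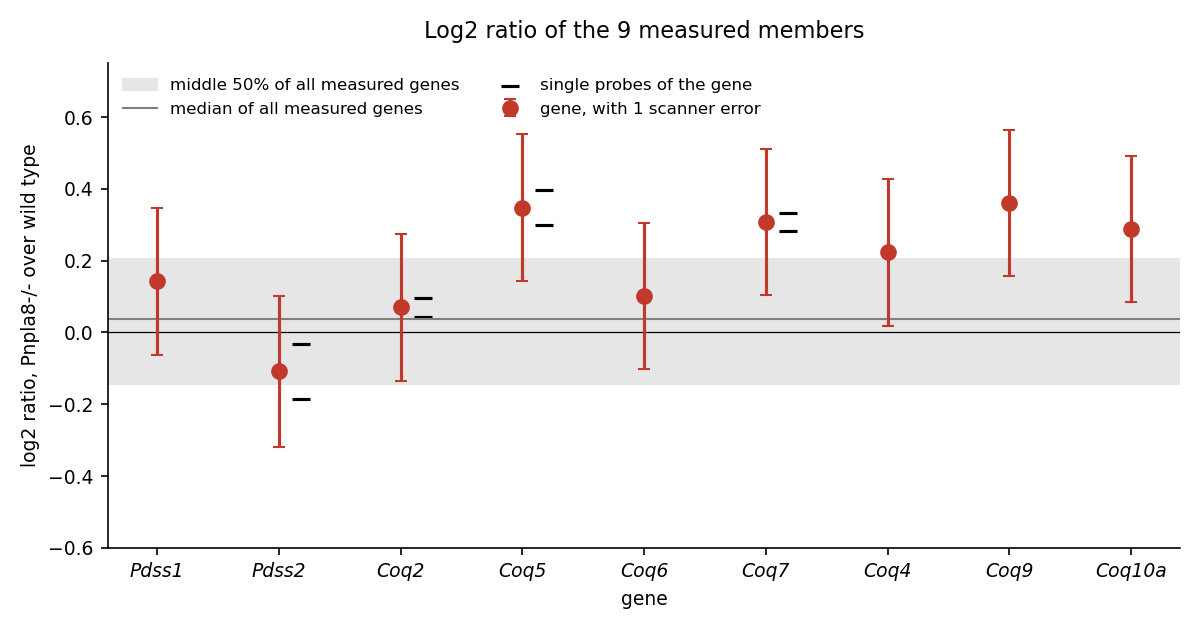
Log2 ratio of Pnpla8-/- over wild type (vertical axis) for the 9 measured members, with bars of 1 scanner error and short dashes for single probes of genes that have 2. The horizontal axis starts with the subunits of the tail synthase and does not follow the order of synthesis steps. Coq9, Coq5, Coq7, Coq10a and Coq4 lie above the grey band that holds the middle 50% of all measured genes, and Pdss2 alone lies below 0.

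Windows of 250 bases before the annotated start were read from the RefSeq promoter table (build GRCm38.p6) for 9 of the 10 members, Coq5 having no entry. The windows of Coq9 and Pdss2 are shown because these genes are the ends of the range. Capitals mark TGACG, the core of the cyclic AMP response element, in Coq9, and CTTCCGG, a core bound by ETS-family factors, in Pdss2.
Coq9, chr8:94838163-94838412, + strand: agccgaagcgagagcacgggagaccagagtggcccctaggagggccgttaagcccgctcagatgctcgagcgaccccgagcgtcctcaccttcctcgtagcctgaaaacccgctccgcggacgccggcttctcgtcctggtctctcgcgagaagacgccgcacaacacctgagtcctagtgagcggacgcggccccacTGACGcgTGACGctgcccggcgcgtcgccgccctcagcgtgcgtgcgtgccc
Pdss2, chr10:43221236-43221485, + strand: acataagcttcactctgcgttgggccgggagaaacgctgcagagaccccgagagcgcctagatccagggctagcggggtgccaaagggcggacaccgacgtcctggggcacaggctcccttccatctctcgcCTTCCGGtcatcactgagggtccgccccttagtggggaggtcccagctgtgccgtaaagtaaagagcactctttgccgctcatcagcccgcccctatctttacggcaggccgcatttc
Both windows were rich in G and C, at 69.2% in Coq9 and 62.0% in Pdss2, against a median of 52.4% over the 32851 windows of the table. The motifs were searched on both strands, and none of their letter strings lies within another. TGACG was present in a window of Coq2, Coq9 and Coq10a, and in 17.8% of all windows. The ETS core CCGGAAG was present in Pdss2 alone among the members and in 6.91% of all windows. The nuclear respiratory factor core GCATGCGC was present in Coq2 and in 2.26% of windows. CCAAT was present in Coq6 and Coq7 and in 33.8% of windows, the E-box CACGTG in Coq4 and 6.02%, and the half-site AAGGTCA of oestrogen-related receptors in Coq10a and Pdss1 and 4.08%. The YY1 core AAGATGGC was present in 0 members and in 1.56% of windows. No motif was shared by more than 3 of the 9 genes, and a match describes the letters of the window only.

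Genes whose products act beside the members were all measured, and all 9 had ratios at or above 0.00 (7 were above 0 without scaling). Of all measured genes 56.4% were above 0 (20.3% without scaling). The partners' median was 0.39, or 0.14 without scaling. The atypical kinases Coq8a and Coq8b, which maintain the enzyme assembly, had ratios of 0.35 and 0.46, and the Coq8a probes differed, at 0.15 and 0.54. Coq10b, the paralogue of Coq10a, had a ratio of 0.31. Fdxr and Fdx1, a ferredoxin reductase and a ferredoxin, had ratios of 0.39 each, whereas Fdx2, the other mitochondrial ferredoxin, had 0.00. Hpdl, which in human cells helps make the ring precursor, had 0.15. Stard7, which carries phosphatidylcholine to mitochondria and in human cells coenzyme Q to the plasma membrane, read 19720 in the Pnpla8-/- pool, against 16059 in the wild-type pool, a ratio of 0.54. Pptc7, a mitochondrial phosphatase that in yeast and mouse is tied to coenzyme Q levels, was the highest partner at 0.79, with probes at 0.75 and 0.84. Of these partners 5 lay above Coq9, the highest member. In either direction 0 passed 2-fold, where 1.27% of all measured genes were higher and 1.94% lower.

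The mevalonate and tyrosine pathways had medians on opposite sides of 0. In the mevalonate pathway, from acetyl-CoA to the isoprenoids used for sterols, dolichol and the coenzyme Q tail, 10 of 12 genes were below 0. The 2 above 0 (1 without scaling) stand against 56.4% of all measured genes (20.3% without scaling). The list's median was -0.36, or -0.61 without scaling and -0.26 with the normexp background. Idi1, which isomerises isopentenyl diphosphate, was the lowest: it read 15006 in the Pnpla8-/- pool, against 36038 in the wild-type pool, 2.03-fold lower. It alone of this list passed 2-fold with the scaling used here, where 1.94% of all measured genes were at least 2-fold lower. Mvd, the diphosphomevalonate decarboxylase, was close to it at 1.97-fold lower. Without scaling Mvd (-1.22) and Hmgcs1, an early enzyme of the pathway (-1.13), passed 2-fold as well. Hmgcs1 was at -0.88 with the scaling used here and -0.52 with the normexp background. The highest was Acat2, an acetoacetyl-CoA thiolase, at 0.54. In the tyrosine pathway all 8 genes were above 0 (7 without scaling), against the same shares of all genes. Their median was 0.54, or 0.29 without scaling and 0.36 with quantile scaling. Tat, tyrosine aminotransferase, read 90675 in the Pnpla8-/- pool, against 43014 in the wild-type pool, 2.50-fold higher (log2 ratio 1.32). The lowest of this list was Pcbd1, which recycles the cofactor of phenylalanine hydroxylase, at 0.22. These lists were not limited to steps that lead to coenzyme Q, since most mevalonate goes to sterols and most tyrosine is degraded for energy.

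**Figure D4:**
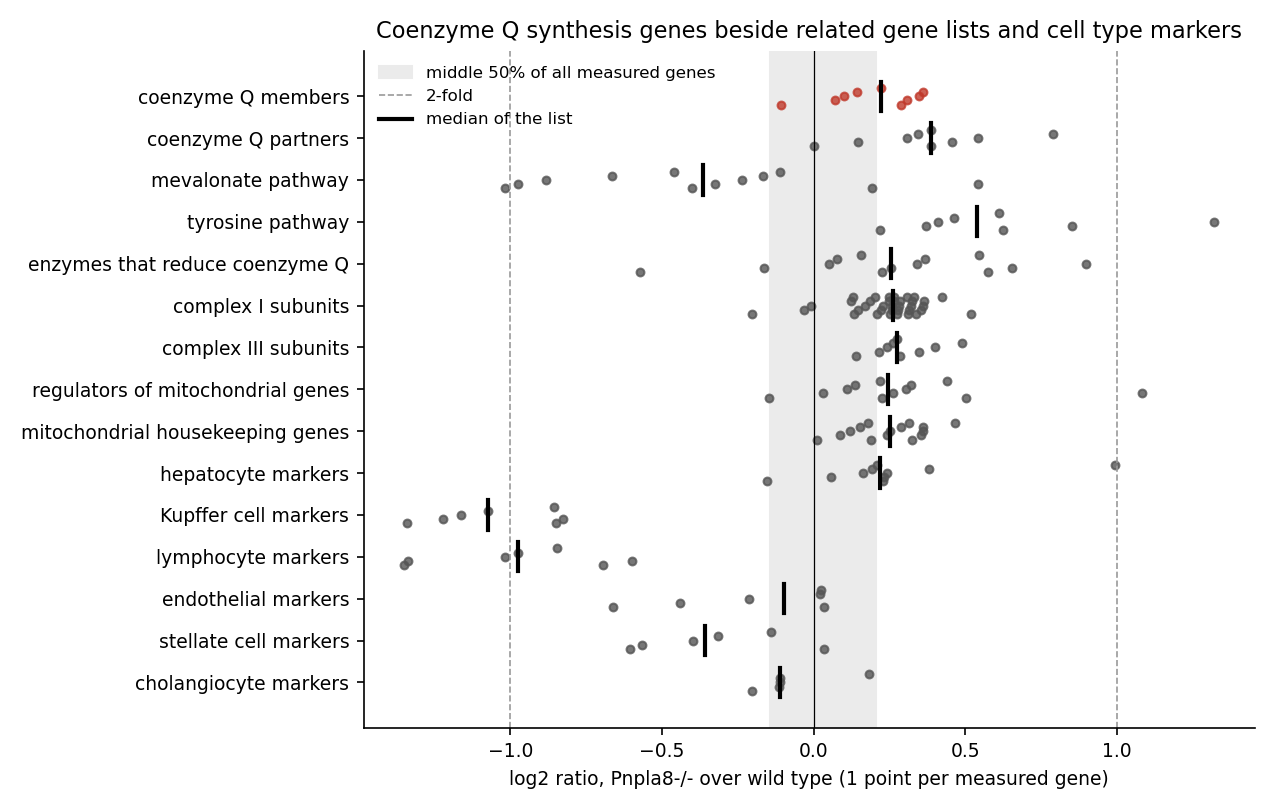
Log2 ratio of Pnpla8-/- over wild type (horizontal axis) for each measured gene of the coenzyme Q members in red and of 14 other lists in grey (vertical axis), with a thick bar at each list's median, a grey band for the middle 50% of all measured genes and dashed lines at 2-fold. The members' median is 0.22, beside 0.26 for complex I, 0.27 for complex III and 0.25 for mitochondrial housekeeping genes (with quantile scaling 0.23, beside 0.11, 0.095 and 0.14), while the mevalonate (-0.36), Kupffer cell (-1.07) and lymphocyte (-0.97) medians lie below 0.

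Enzymes that use coenzyme Q also had medians above 0, where 56.4% of all genes lay (20.3% without scaling). Of 13 genes for enzymes that pass electrons to it, 11 were above 0 (7 without scaling) and the median was 0.26. Sdha, Sdhb, Sdhc and Sdhd among them encode subunits of a single enzyme, complex II. The range of the 13 genes was wider than that of the members, and 6 of the 13 lay within the members' range. Prodh, proline dehydrogenase, was the highest at 0.90, and the pair below 0 were Gpd2, the mitochondrial glycerol-3-phosphate dehydrogenase, at -0.57 and Nqo1, a cytosolic quinone reductase, at -0.16. Of 36 complex I subunits 33 were above 0 (23 without scaling), the median was 0.26 and 31 lay within the range of the members. Their ends were Ndufa13 at 0.52 and Ndufab1, the mitochondrial acyl carrier protein, at -0.20, and the others below 0 were Ndufa8 (-0.03) and Ndufb11 (-0.01). All 9 complex III subunits were above 0 (6 without scaling), between Uqcr11 at 0.14 and Cyc1, cytochrome c1, at 0.49, with a median of 0.27.

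Other mitochondrial genes, and regulators of mitochondrial genes, were examined next. All 15 housekeeping genes, for import, chaperones, porins and citrate synthase, were above 0 (8 without scaling), between Cs at 0.01 and Tomm40 at 0.47, with a median of 0.25, and 13 of the 15 lay within the range of the members. Of 12 regulators of mitochondrial genes 11 were above 0 (6 without scaling), the median was 0.24 and 8 lay within the range of the members. Ppargc1a, a coactivator of mitochondrial genes, was the highest at 1.08, or 2.12-fold, but was under 2-fold without scaling (0.84) and with the normexp background (0.95). Pprc1, a relative of it, was the lowest at -0.15. Without scaling the medians were 0.01 for the reducing enzymes, 0.02 for complex I, 0.03 for complex III, 0.01 for the housekeeping genes and 0.00 for the regulators, beside -0.02 for the members and -0.21 for all genes. With quantile scaling the lists parted from the members, whose median was 0.23, against 0.14 for the reducing enzymes and the housekeeping genes, 0.11 for complex I, 0.095 for complex III and 0.21 for the regulators. With loess scaling the members' median was 0.19, against 0.14 for complex I and 0.15 for complex III and the reducing enzymes, and 0.155 for the housekeeping genes. Whether the members differ from other mitochondrial genes could not be tested with 1 array per genotype.

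The cell makeup of the pools was read from marker lists, all of whose genes were well above background on both arrays, so none was at 0. Summed levels are given in units of the array's 75th percentile. Hepatocyte markers, which check the label of the tissue as liver, summed to 2115 in the Pnpla8-/- pool and 1831 in the wild-type pool. Their median was 0.22, or -0.03 without scaling, 0.02 with quantile scaling and 0.04 with loess scaling. Of these 10 markers 9 were above 0 (2 without scaling), against 56.4% of all measured genes (20.3% without scaling). The ends were Cps1, a urea cycle enzyme, at 0.99 and Apoa1 at -0.15. Kupffer cell markers summed to 35.9 in the Pnpla8-/- pool, against 77.7 in the wild-type pool. All 7 were below 0 with a median of -1.07. Marco (-1.34), Cd5l (-1.22), Adgre1 (-1.16) and Timd4 (-1.07) were past 2-fold lower, where 1.94% of all measured genes were. Of these Timd4 was not past it with the normexp background (-0.95). Csf1r was the least low of the Kupffer cell markers at -0.82, and its 3 probes ran from -0.96 to -0.17.

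Lymphocyte markers summed to 0.876 in the Pnpla8-/- pool, against 1.67 in the wild-type pool. All 7 were below 0 between Cd3d at -1.35 and Cd79a at -0.60, with a median of -0.97. The probes of Nkg7 differed, at -1.35 and -0.04. Past 2-fold lower were Cd3d, Ms4a1 (-1.34) and Cd3g (-1.02), where 1.94% of all measured genes were. With the normexp background none of these 3 was (Cd3d -0.87, Ms4a1 -0.71, Cd3g -0.43), and the list's median was -0.43. Endothelial markers summed to 40.2 in the Pnpla8-/- pool and 44.3 in the wild-type pool, with 3 of 6 below 0 and a median of -0.10, from Lyve1 at -0.66 to Stab2 at 0.03. Stellate cell markers summed to 48.2 in the Pnpla8-/- pool and 49.2 in the wild-type pool, a sum made up mostly of Dcn. Of the 6 stellate cell genes 5 were below 0, with a median of -0.36 (-0.17 with the normexp background), from Col3a1 at -0.61 to Dcn at 0.03. Cholangiocyte markers summed to 0.895 in the Pnpla8-/- pool and 0.955 in the wild-type pool, with 4 of 5 below 0 and a median of -0.11 (0.06 with the normexp background), from Epcam at -0.20 to Sox9 at 0.18. In pooled tissue RNA fewer cells of a type and less RNA per cell cannot be told apart. Whether the cell makeup has a part in the members' ratios was not tested.

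The choice of scaling mattered more to the members' signs than to their order. Their median was 0.28 with median scaling, 0.23 with quantile scaling and 0.19 with loess scaling or the normexp background. It was 0.06 with spike-in scaling and -0.02 with none. Pdss2 was the lowest member under each of these settings, and the highest was Coq9, or Coq5 with quantile and loess scaling. Against the median of all genes, 8 of 9 members were higher without scaling and with median or spike-in scaling. Those settings move every gene alike, so they could change neither this count nor the order. It was 7 of 9 with quantile scaling, loess scaling or the normexp background.

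**Figure D5:**
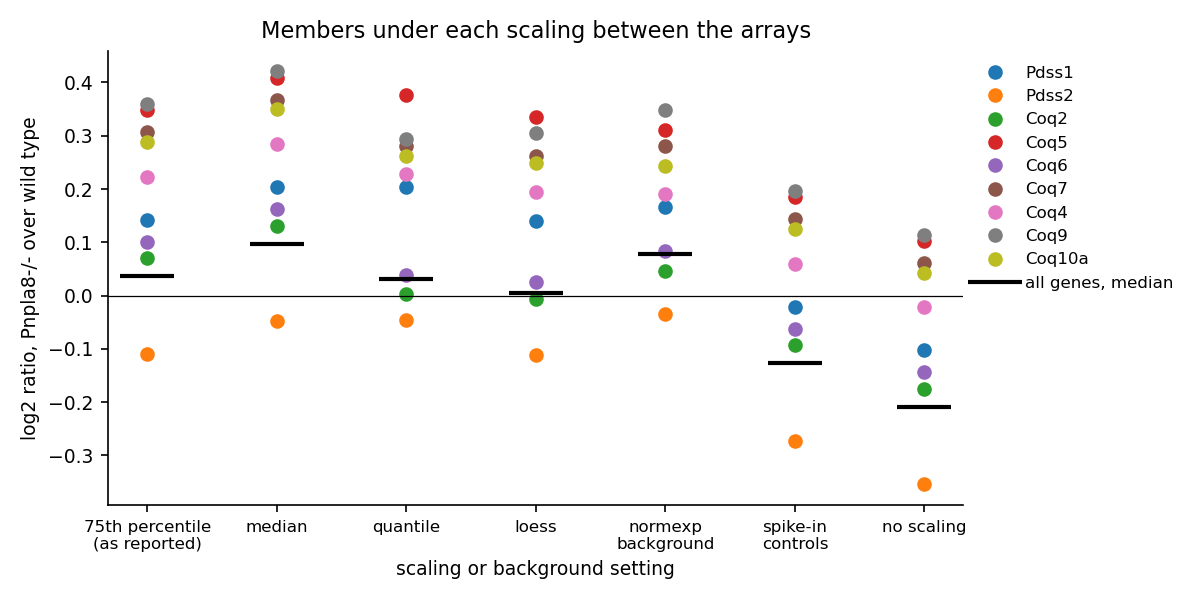
Log2 ratio of Pnpla8-/- over wild type (vertical axis) for each of the 9 measured members, as coloured points, under 7 scaling or background settings (horizontal axis), with a black bar at the median of all measured genes. With median scaling, spike-in scaling or none the members shift by the same amount as the bar, to medians of 0.28, 0.06 and -0.02, whereas with the normexp background the bar is higher (0.08 against 0.04) and the members' median lower (0.19 against 0.22) than as reported, and Pdss2 is the lowest point in each column.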

How the data were processed

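Liver RNA (200 ng, purified on RNeasy columns) was amplified and labelled with Cy3, per the labels' protocols, and the submitters' processing notes name Agilent Feature Extraction 11.5.1.1 for reading spot intensity. The deposited scanner files hold the intensity of each spot on a linear scale after the authors' background subtraction, and per the file headers their build is mm9. The deposited value table holds each array's intensity divided by a constant, 1019 for the Pnpla8-/- array and 1207 for the wild-type array, on a linear scale and not centred, with column medians of 0.0763 and 0.0800. The sources used here do not say how its authors set the constant. The files held 0 other per-sample columns.

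From the scanner files, the log2 processed signal was lowered by the 75th percentile of all non-control spots on the same array. Control spots and spots with an outlier mark (170 on the Pnpla8-/- array, 119 on the wild-type array) were left out, spots of a probe were averaged, and a gene took the median over its probes that were well above background on both arrays. Where a probe was above background on 1 array only, as for Pnpla8, the bound was the bright signal over the higher of the dim probe's signal and the lowest signal above background on that array, both scaled. Of 39429 probes, 28330 were renamed through accession and 2378 through name by the RefSeq table (GRCm38.p6), which served for names and chromosomes only. Another 8721 kept the file's name, and 2462 of these, without a name, were left out.

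Precision is limited by 1 array per genotype, so no p-value is given. The median SD was 0.047 between spots of a probe (298 probes) and 0.095 between probes of a gene (4286 genes), on the log2 ratio. The members and lists were chosen with earlier results of these data known, and the promoter motifs after the windows had been read. Named were all members, all partners, Pnpla8, the ends of each related list and its genes past 2-fold. Genes that make up the small counts below or above 0 (Nqo1, Ndufa8, Ndufb11), with Mvd, Hmgcs1 and Nkg7, were named after their values were seen. Beyond those given, 1 further gene and 1 further probe sequence are not reported here. Alternatives were scaling by the median, by quantiles, by 8 spike-in probes, by loess (span 0.3) or not at all, normexp with an offset of 50, the value table, other filters on dim or marked spots, other probe summaries and a 1.5-fold threshold. The steps were tested on simulated data. Tools were Python 3.11.15 with numpy 2.4.6, pandas 2.3.3 and statsmodels 0.14.6 (loess), and R 4.3.3 with limma 3.58.1 (normexp).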

Additional observations from a re-analysis of the deposited data

How the results depend on the processing

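With 1 array per genotype no replicate could be left out. No paired analysis was possible because each group holds 1 array. Among the alternatives to the members' values and the counts over all genes, 159 kept the value within its error or 1.5 times the count and 25 moved it. For a member that error was its scanner error, and for their median it was 0.095, the median SD between probes of a gene. The tally does not measure robustness. The value table, the filters on dim probes and the mean over probes left the members' ratios all but unchanged. Coq2 (-0.09), Coq6 (-0.06) and Pdss1 (-0.02) fell below 0 with spike-in scaling yet counted as kept. Without scaling the ratios were -0.18 for Coq2, -0.022 for Coq4, 0.10 for Coq5, -0.14 for Coq6, 0.062 for Coq7, 0.11 for Coq9, 0.043 for Coq10a, -0.10 for Pdss1 and -0.35 for Pdss2, with a median of -0.022 and 4 above 0. With spike-in scaling the median was 0.06 and 5 were above 0. Over all genes, 238 were at least 2-fold higher and 364 lower as reported (39.5% of those past 2-fold were higher). The counts were 110 higher and 744 lower without scaling (12.9% higher), 127 and 600 with spike-in scaling (17.5% higher), and 130 and 125 with the normexp background (51.0% higher). They were 881 higher and 1148 lower with no filter on dim probes, 143 and 224 over probes above the median signal, and 809 and 1152 at 1.5-fold. Of the related lists' medians under the alternatives, 121 stayed within 0.095 of the value as reported and 47 moved. That cutoff is the SD between probes of a gene and not an error of a list's median. Of the medians that moved, 14 were without scaling and 14 with spike-in scaling. The dim Coq3 probe limits what can be said of that gene.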
